A study of Mus musculus with 16 samples.

Results

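Markers of pericytes, smooth muscle cells and fibroblasts were followed in cultures of mouse lung endothelial cells (MLECs). The set comprised 10 genes, chosen by symbol from the 55414 genes of the count table: *Dcn*, *Lum*, *Pdgfrb*, *Pdgfra*, *Acta2*, *Tagln*, *Cnn1*, *Rgs5*, *Des* and *Thy1*. All 10 passed the filter on low counts, which left 15693 genes for testing. *Cnn1* reached 10 counts in only 4 libraries, all of isolation 1, *Lum* in 5 libraries and *Des* in 9, whereas the other members reached 10 counts in all 16 libraries.

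MLECs from 4 independent isolations of C57BL/6 mice with *Eng* fl/fl alleles, the ubiquitously expressed Rosa26-CreERT2 and the Immorto transgene were purified with beads against CD31 and then ICAM2. In each isolation *Eng* was deleted in culture with 4-OH-tamoxifen (KO) or left intact with vehicle (Ctrl), so the Ctrl cells carry the floxed alleles and the Cre as well. The culture medium also held interferon-γ and the compound SB431542, and both were withdrawn together with 4-OH-tamoxifen before serum starvation. Their part in the marker levels was not tested. After serum starvation, cells received PBS or ligand for 90 min, the ligand being sENG(M):BMP9 (BMP9 bound to monomeric soluble endoglin) in Ctrl cells and pro:BMP9 (BMP9 with its prodomain) in KO cells, both at 0.2 ng/ml (BMP9 growth factor domain). The groups are called Ctrl PBS, KO PBS, Ctrl sENG(M):BMP9 and KO pro:BMP9, each with 4 libraries, 1 per isolation, and *Eng* loss cannot be told apart from exposure to tamoxifen, nor genotype from the form of the ligand. The Cre driver acts in any cell type, so a mural cell or fibroblast carried over into the culture would be recombined too. Library totals were 14869115 to 17242117 counts. The age and sex of the mice were not given in the sources used here.

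Mural cells wrap the outside of blood vessels: pericytes sit on capillaries, and smooth muscle cells ring larger vessels and contract through smooth muscle actin and its partners. Endothelial cells recruit pericytes by secreting PDGF-B, which is received by PDGFRβ on the pericyte. Fibroblasts lie further out and deposit the matrix, including the small leucine-rich proteoglycans decorin and lumican. Several of these genes, *Acta2*, *Tagln* and *Cnn1* among them, are classic products of the serum response factor programme and are switched on in many cell types in culture, including endothelial cells undergoing mesenchymal transition, so that no single gene of the set identifies a cell.

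The 250 bases upstream of the start sites of *Acta2* and *Cnn1* are shown because both contractile genes were highest in isolation 1 and lower there in KO cells, as described below. The CArG box, the binding motif of serum response factor, is marked in capitals where it occurs with at most 1 mismatch on either strand. The sequences are RefSeq promoters of GRCm38.p6, the former at chr19:34255374-34255623 on the minus strand and the latter at chr9:22099003-22099252 on the plus strand, written 5′ to 3′.
Acta2: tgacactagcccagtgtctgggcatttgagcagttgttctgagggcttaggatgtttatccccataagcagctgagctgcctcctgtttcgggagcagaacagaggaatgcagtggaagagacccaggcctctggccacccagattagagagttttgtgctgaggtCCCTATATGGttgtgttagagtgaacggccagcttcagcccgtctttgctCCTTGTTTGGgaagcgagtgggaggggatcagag
Cnn1: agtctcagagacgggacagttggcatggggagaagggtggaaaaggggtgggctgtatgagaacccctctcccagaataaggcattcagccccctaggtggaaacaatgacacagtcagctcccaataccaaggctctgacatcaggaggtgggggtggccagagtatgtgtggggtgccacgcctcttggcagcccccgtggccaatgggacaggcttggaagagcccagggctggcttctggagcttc
The *Acta2* window held 2 such boxes, which start at positions -84 and -34 relative to the start site, and the *Cnn1* window held none. Of the 10 members, 5 had a window in the table (*Pdgfra*, *Acta2*, *Cnn1*, *Rgs5* and *Des*), and the other windows held no box with at most 1 mismatch. Such a box was found in 18.6% of all 32851 windows of the table, and an exact box in 1.47% of them and in none of the 5. No other motif was searched.

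All 15 listed endothelial genes were tested, and the members lay well below the most abundant of them but not below all. *Cdh5*, the VE-cadherin of endothelial junctions, had isolation means between 361 and 653 CPM per kb of gene length, where CPM is counts scaled to the library total after TMM normalisation, and *Pecam1* had 124 to 306. The receptor genes *Kdr* (5.62 to 17.5), *Tek* (9.52 to 20) and *Flt1* (15.1 to 19.7) and the secreted factor gene *Vwf* (0.186 to 2.56) lay lower. On the same scale, the mean over the 16 libraries was 17.1 for *Acta2* (range 2.24 to 75.8), 16.4 for *Thy1* (2.97 to 39.5), 10.8 for *Dcn* (0.83 to 32.1) and 10.3 for *Pdgfrb* (4.08 to 19.7). *Tagln* followed with 6.26 and *Rgs5* with 3.55, and *Pdgfra*, *Lum*, *Des* and *Cnn1* had means between 0.187 and 0.929 CPM per kb. The ranges of neighbouring genes in this order overlapped throughout. Some other fibroblast genes lay above most of the members, with isolation means of 74.2 to 214 CPM per kb for *Fbln2*, 125 to 265 for *Gsn* and 32.7 to 124 for *Bgn*. Others were scarce: of 32 further non-collagen fibroblast genes listed, 24 passed the filter, and *Tcf21* and *Inmt* had at most 3 counts in every library. In bulk RNA, fewer cells of a type and less RNA per cell cannot be told apart. *Eng* itself checked the labels: in PBS it stood at 9.27%, 8.51%, 14.5% and 13.7% of the Ctrl level in the KO cells of isolations 1, 2, 3 and 4.

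The level of every member depended on the isolation. In edgeR's quasi-likelihood test with Benjamini-Hochberg adjustment, all 10 members differed among the 4 isolations, with adjusted p from 2.85e-16 for *Dcn* to 6.16e-07 for *Cnn1*. Of all tested genes 69.7% were called in this comparison, so the calls alone do not set the members apart. For the size of the differences, the highest and lowest isolation means were at least 5-fold apart for 8 of the 10 members and for 5.31% of all tested genes, and the median fold over all tested genes was 1.37. *Cnn1* and *Lum* are among these 8, although the counts of *Cnn1* outside isolation 1 were between 0 and 4. *Cnn1* passed the filter on low counts only through isolation 1, and *Lum* did not pass it without isolation 4. For both genes the calls and spans among isolations are therefore not independent of the filter.

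**Figure D1:**
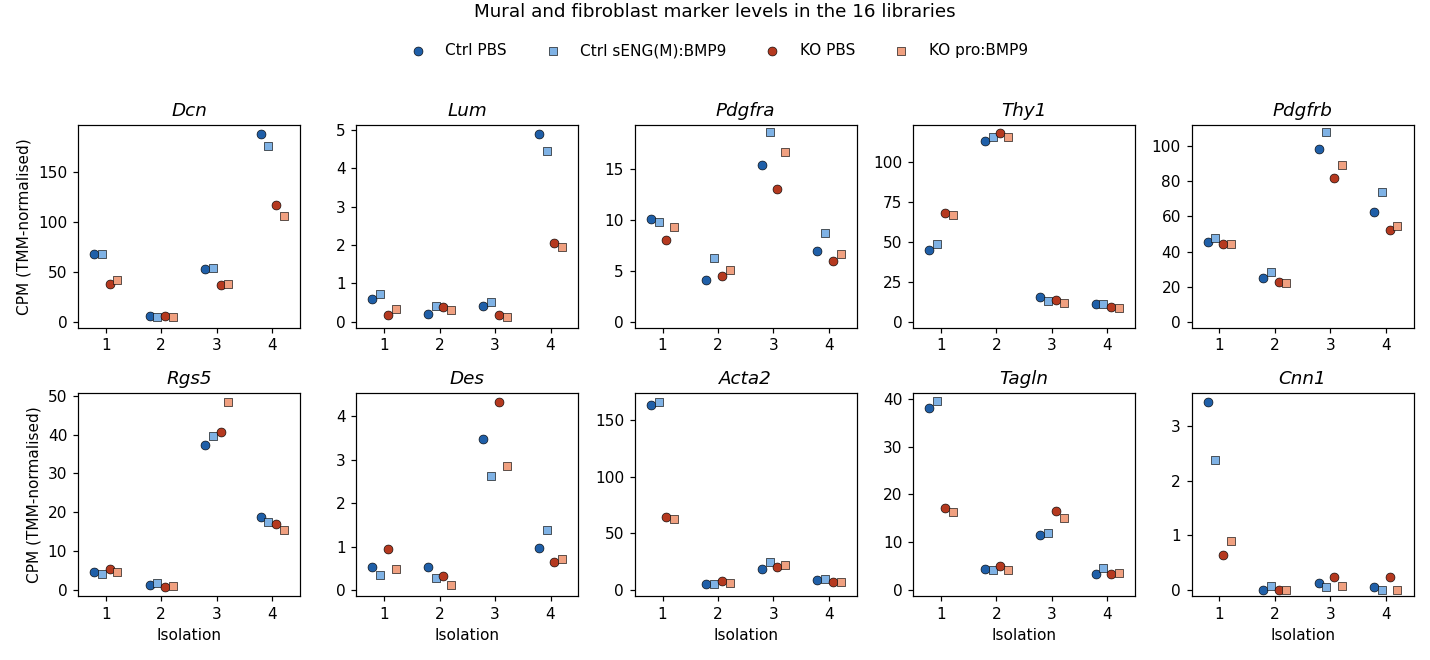
Level of each member in the 16 libraries. The x axis gives the isolation and the y axis the CPM (TMM-normalised, linear scale, each panel with its own scale); each point is 1 library, coloured by group. The highest points of *Acta2*, *Tagln* and *Cnn1* lie in isolation 1, that of *Thy1* in isolation 2, those of *Pdgfrb*, *Pdgfra*, *Rgs5* and *Des* in isolation 3, and those of *Dcn* and *Lum* in isolation 4.

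Among the fibroblast genes, *Dcn* (ENSMUSG00000019929, GRCm39 chr10:97315471-97354005, plus strand, 8 exons), which encodes the collagen-binding proteoglycan decorin, had a mean of 147 CPM in isolation 4, 54.1 in isolation 1, 45.5 in isolation 3 and 5.4 in isolation 2. This is a 27.2-fold span. Isolations 1 and 3 overlapped in their ranges, and isolations 4 and 2 stood clear of them. *Lum* (ENSMUSG00000036446, GRCm39 chr10:97400990-97408565, plus strand, 3 exons), the gene of the related proteoglycan lumican, was also highest in isolation 4, at 1.96 to 4.89 CPM, whereas the other isolations lay between 0.13 and 0.713 CPM and overlapped. *Pdgfra* (ENSMUSG00000029231), the PDGF receptor of fibroblasts, had its highest mean in isolation 3 (15.9 CPM), and the ranges of isolations 1, 4 and 2 each overlapped with the next below it.

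*Thy1* (ENSMUSG00000032011, GRCm39 chr9:43954681-43959876, plus strand, 4 exons), a glycolipid-anchored surface protein used to mark fibroblasts, had another order. Its mean was 116 CPM in isolation 2, 57.2 in isolation 1, 13.5 in isolation 3 and 10.1 in isolation 4, with no overlap between any 2 isolations. Isolation 2, where *Thy1* was highest, held the lowest mean of 7 of the 10 members. *Lum* was lowest in isolation 3 and *Tagln* in isolation 4. The share of all tested genes that were lowest in isolation 2 was not determined. Of 6 listed lymphatic endothelial genes, *Prox1*, *Pdpn* and *Flt4* had the same order of isolation means, at 57.1, 48.6, 15.2 and 6.59 CPM for *Prox1* and 158, 141, 64.4 and 13.1 CPM for *Pdpn* in isolations 2, 1, 3 and 4. The other 3 did not: *Lyve1*, the most abundant, had 5380, 4170, 3110 and 4300 CPM in isolations 2, 1, 3 and 4, *Mmrn1* had 66 CPM in isolation 1 and 0.163 in isolation 2, and *Ccl21a* was lowest in isolation 2 at 0.439 CPM. The order was not particular to lymphatic genes. Single genes of other lists had it too, namely *Cldn5* (endothelial), *Krt18* (epithelial), *Cd14* (leukocyte) and *Sfrp1* (fibroblast), whereas others of those lists did not. Whether *Thy1* RNA came from the endothelial cells was not tested.

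The pericyte genes shared isolation 3 as their highest. *Pdgfrb* (ENSMUSG00000024620), the receptor through which pericytes are recruited, had means of 94.3, 60.8, 45.3 and 24.6 CPM in isolations 3, 4, 1 and 2. *Rgs5* (ENSMUSG00000026678), a regulator of G protein signalling that is enriched in pericytes, had the same order with a wider span, at 41.5, 17.2, 4.68 and 1.16 CPM. For both genes no 2 isolations overlapped. *Des* (ENSMUSG00000026208), the muscle intermediate filament desmin, reached 2.62 to 4.33 CPM in isolation 3 and 0.126 to 1.39 CPM in the others, which overlapped.

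Other pericyte genes did not all share that order. *Notch3*, the Notch receptor of mural cells, had means of 174, 127, 58.6 and 27 CPM in isolations 3, 4, 1 and 2, the order of *Pdgfrb*. The ATP-sensitive potassium channel genes *Kcnj8* and *Abcc9* lay the other way: *Kcnj8* had 19.4 and 22.5 CPM in isolations 1 and 2 and 2.36 and 2.5 CPM in isolations 3 and 4, and *Abcc9* had 34.9, 33.7, 4.73 and 2.75 CPM in isolations 1 to 4. Of the 14 further pericyte genes listed, *Vtn* and *Higd1b* had at most 3 counts in every library.

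The contractile genes were highest in isolation 1. *Acta2* (ENSMUSG00000035783, GRCm39 chr19:34218490-34232990, minus strand, 9 exons), smooth muscle α-actin, had a mean of 114 CPM there, 21.4 in isolation 3, 8.23 in isolation 4 and 6 in isolation 2, of which the last 2 overlapped. *Tagln* (ENSMUSG00000032085, GRCm39 chr9:45840917-45847356, minus strand, 5 exons), the actin-binding protein transgelin, had a mean of 27.8 CPM in isolation 1 and 13.8 in isolation 3, whose ranges overlapped, and 4.45 and 3.76 CPM in isolations 2 and 4. *Cnn1* (ENSMUSG00000001349, GRCm39 chr9:22010512-22020926, plus strand, 7 exons), calponin, was counted 10 to 53 times per library in isolation 1 and 0 to 4 times in every other library. *Tagln* overlaps *Pcsk7* and *Cnn1* overlaps *Elof1* on the opposite strand, and the strand setting of the counting was not given in the sources used here.

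Of 20 further smooth muscle contractile genes, 16 were tested, and they did not follow *Acta2* as a group. *Myh11*, the smooth muscle myosin heavy chain and the most specific of them, lay between 0.327 and 3.43 CPM in all libraries, with means of 2.61, 0.701, 1.87 and 1.83 CPM in isolations 1 to 4. *Pln* and *Kcnmb1* had at most 3 counts in every library. The most abundant were the widely used cytoskeletal genes *Flna* (mean 1450 CPM, range 1280 to 1750), *Cald1* (529, 417 to 678), *Vcl* (493, 377 to 635) and *Tpm1* (359, 264 to 450).

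**Figure D2:**
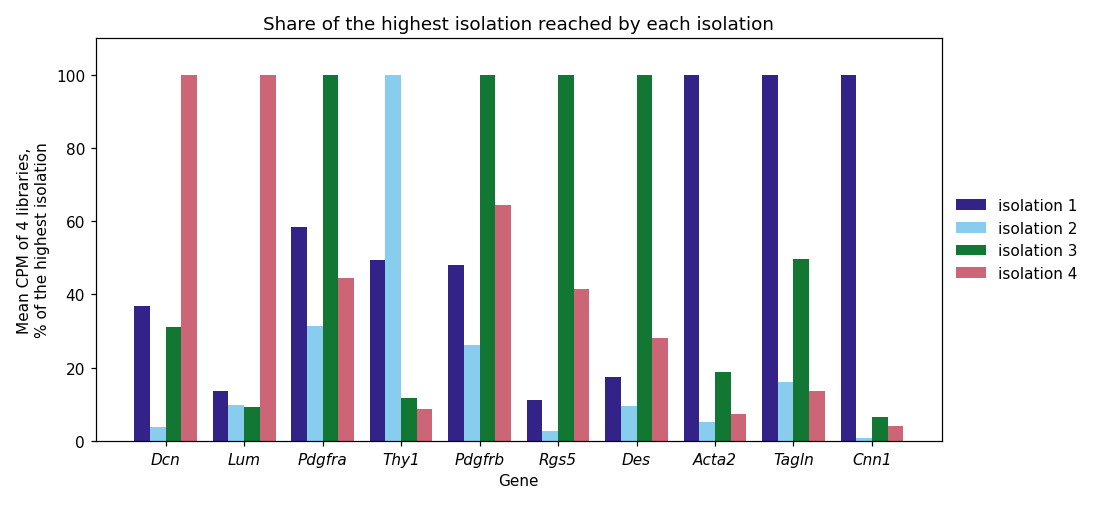
Mean CPM of the 4 libraries of each isolation as a percentage of the isolation with the highest mean, for each member; the y axis is linear and starts at 0. Isolation 2 has the lowest bar for 7 of the 10 genes and the highest for *Thy1*.

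Over the 16 libraries, likeness between members followed their roles only in part. The measure of likeness was the root mean square difference of log2 CPM after each gene was centred on its mean, so that 0 is an identical pattern. *Pdgfrb* and *Pdgfra*, a pericyte and a fibroblast gene, were closest at 0.349. *Acta2* and *Tagln* followed at 0.636, *Pdgfrb* and *Des* at 0.642 and *Acta2* and *Cnn1* at 0.66. The pericyte genes *Pdgfrb* and *Rgs5* were 1.25 apart and *Dcn* and *Lum* 1.28, and *Rgs5* and *Thy1* were the least alike at 3.32. Among all tested genes, the nearest to *Pdgfrb* were *Pcolce* (0.124), *Igsf9b* (0.179), *Dzip1* (0.183), *Angptl2* and *Plekha7* (0.202 each). The nearest to *Acta2* were *Krt8* (0.339), *Akap5* (0.378), *Ppfibp2* (0.459), *Pcdh11x* (0.469) and *Sulf1* (0.478). No gene lay as near to *Dcn*, for which *Tnip3* (0.531), *D630003M21Rik* (0.734), *Cemip* (0.801), *Mab21l3* (0.942) and *Apol6* (0.951) came closest.

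Loss of *Eng* was then compared within isolations. In PBS, *Dcn* was the only member called between KO and Ctrl cells, at a threshold of adjusted p under 0.05, and it was lower in KO cells. Of all tested genes 0.0191% were called in this comparison, 3 genes, all lower, with *Dcn* and the deleted gene *Eng* itself among them. The paper, with its own processing, named *Col3a1*, *Elovl6* and *Reln* as lower here and did not name *Dcn*. *Dcn* had 68.3, 5.65, 52.9 and 188 CPM in Ctrl PBS and 37.8, 6.02, 37.3 and 117 CPM in KO PBS, in isolations 1 to 4. KO cells were thus lower in isolations 1, 3 and 4 and not in isolation 2, where *Dcn* was scarce, and the groups as wholes overlapped (78.6 ± 77.4 against 49.6 ± 47.6 CPM, mean ± SD, n = 4). The log2 fold change was -0.61 (SE 0.089, adjusted p = 0.0160, edgeR's quasi-likelihood test). The call was lost without isolation 1 (adjusted p = 0.225), isolation 3 (0.167) or isolation 4 (0.0504), and in a fit of only the 8 PBS libraries (0.0845).

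With ligand, *Dcn* and *Pdgfrb* were called lower in KO cells, 2 of 10 members, against 0.255% of all tested genes (0.166% lower). *Dcn* had 68, 5.09, 54.2 and 176 CPM in Ctrl sENG(M):BMP9 and 42.2, 4.85, 37.4 and 106 CPM in KO pro:BMP9, again with a log2 fold change of -0.61 (SE 0.0894, adjusted p = 0.00835). *Pdgfrb* had 47.8, 28.2, 108 and 74.1 CPM in Ctrl sENG(M):BMP9 and 44.2, 22.3, 89.3 and 54.4 CPM in KO pro:BMP9. All 4 isolations had less in KO cells, although the groups overlapped, with a log2 fold change of -0.29 (SE 0.0545, adjusted p = 0.0289). The *Dcn* call was lost without isolation 1 (adjusted p = 0.0777), and that of *Pdgfrb* without isolation 2 (0.141), 3 (0.132) or 4 (0.106) and in a fit of only the ligand-treated libraries (0.0671).

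Taken over both treatments, the mean KO effect called *Dcn*, *Lum* and *Pdgfrb* lower and no member higher, 3 of 10 members against 1.38% of all tested genes (0.682% lower). The median log2 fold change of the 10 members was -0.28, with 8 of 10 negative, against a median of 0 over all tested genes. The share of all tested genes with a negative value was not determined. Of the 8, *Pdgfrb* and *Pdgfra* were lower in all 4 isolations and *Dcn*, *Lum* and *Acta2* in 3. *Tagln*, *Cnn1* and *Des* were lower in 2 isolations and higher in 2, so the set did not fall as a whole. *Dcn* stood at 65.4% of the Ctrl level (log2 fold change -0.61, SE 0.0631, adjusted p = 1.18e-04), and this call was kept when any single isolation was left out (adjusted p up to 0.00421). *Pdgfrb* stood at 84.9% (log2 fold change -0.24, SE 0.0387, adjusted p = 0.00753), with KO cells lower in all 8 isolation-matched pairs of libraries, 2 pairs from each of 4 isolations, which held for 1.04% of all tested genes. Its call was lost without isolation 3 (adjusted p = 0.0702). In this fit the PBS and ligand libraries of a culture count as separate replicates of its genotype, although each isolation was divided only once. With both libraries of a culture summed, an alternative added after the values were seen, edgeR's quasi-likelihood test over the 8 cultures called *Dcn* alone (log2 fold change -0.60, SE 0.0812, adjusted p = 0.0335) among the members and 0.121% of all tested genes, and adjusted p was 0.127 for *Pdgfrb* and 0.219 for *Lum*. The effect on *Dcn* averaged over both treatments was -0.77, 0.01, -0.52 and -0.70 on the log2 scale in isolations 1 to 4. In PBS alone *Pdgfrb* had 45.2, 25.2, 98.3 and 62.4 CPM in Ctrl and 44.2, 22.8, 81.7 and 52.5 CPM in KO cells, a difference that was not called (log2 fold change -0.18, SE 0.055, adjusted p = 0.440).

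*Lum* rested on few reads. Its counts were 9, 3, 7 and 81 in Ctrl PBS and 3, 6, 3 and 35 in KO PBS, and 12, 6, 9 and 77 in Ctrl sENG(M):BMP9 and 5, 5, 2 and 30 in KO pro:BMP9, in isolations 1 to 4. KO cells had fewer in every pair except that of isolation 2 in PBS, and only isolation 4 was above 12 counts. The log2 fold change over both treatments was -1.07 (adjusted p = 0.0237), and it was not called without isolation 1 (0.130) or isolation 3 (0.110); without isolation 4 *Lum* did not pass the filter, and DESeq2 gave it no adjusted p. *Pdgfra* had log2 fold changes of -0.20 in PBS and -0.21 with ligand and was not called (adjusted p = 0.749 and 0.496).

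**Figure D3:**
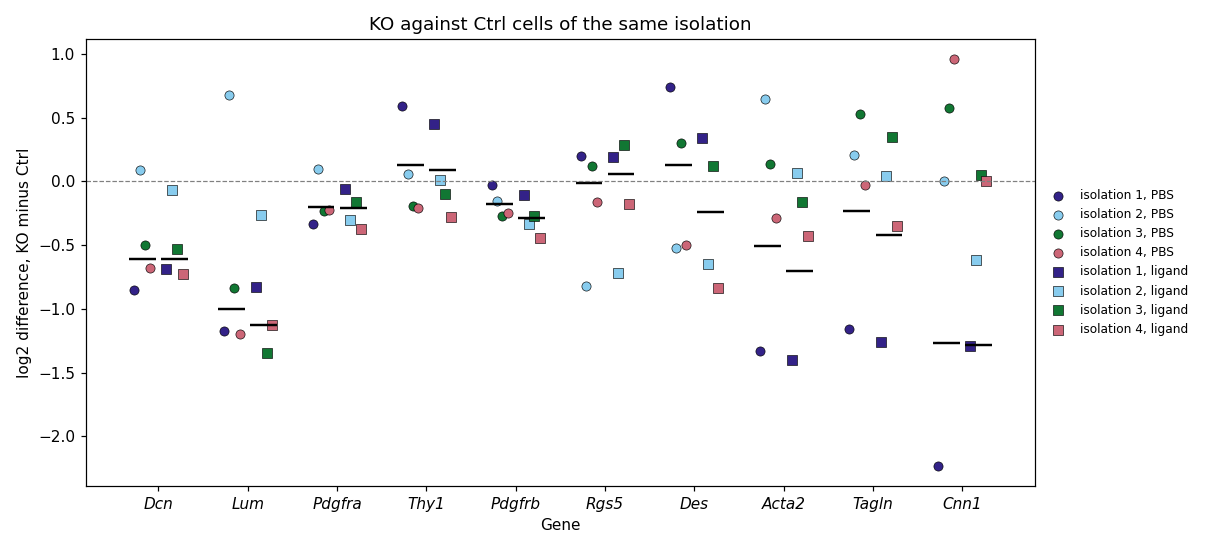
Difference between KO and Ctrl cells of the same isolation for each member. The y axis is the log2 CPM difference (prior count of 2), circles are PBS and squares ligand-treated libraries, colours are isolations, and black bars are the fitted log2 fold changes. The *Acta2*, *Tagln* and *Cnn1* points of isolation 1 lie below -1.1, away from those of the other isolations, where *Cnn1* had 0 to 4 counts; *Pdgfrb* lies below 0 throughout.

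For the contractile genes, KO and Ctrl cells lay far apart in isolation 1. *Acta2* had 163, 4.93, 18.4 and 8.94 CPM in Ctrl PBS and 64.7, 7.78, 20.3 and 7.31 CPM in KO PBS, so the KO level was 39.7%, 158%, 110% and 81.8% of Ctrl in isolations 1 to 4. With ligand it was 166, 5.49, 24.7 and 9.59 CPM in Ctrl and 62.9, 5.79, 22.1 and 7.06 CPM in KO cells, or 37.8%, 105%, 89.7% and 73.7%. KO cells of isolation 1 were thus low in both treatments, and the Ctrl and KO groups as wholes overlapped. The KO effect over all isolations was not called in PBS (log2 fold change -0.51, SE 0.245, adjusted p = 0.738) or with ligand (-0.70, SE 0.244, adjusted p = 0.283).

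*Tagln* repeated this in isolation 1, with 38.2 CPM in Ctrl and 17.1 in KO cells in PBS, and 39.5 and 16.4 with ligand. The KO level was 44.7% and 41.6% of Ctrl there, against 77.8% to 145% in the other isolations. *Cnn1* had few reads in the same cells, with 53 counts in Ctrl and 10 in KO cells in PBS and 40 and 13 with ligand. *Acta2*, *Tagln* and *Cnn1* were at or under 50% of Ctrl in isolation 1 in both treatments, after a prior count of 2 was added. These were 3 of 10 members, against 0.185% of all tested genes by the same measure. *Lum*, on 3 to 12 counts, met the limit by CPM alone (32.5% in PBS and 48.4% with ligand) but not with the prior count. This limit was set after the values were seen, and *Cnn1* passed the filter on low counts only through isolation 1. The comparison with all tested genes is therefore a description only. *Thy1* was higher in the KO cells of isolation 1, at 45.2 CPM in Ctrl and 68 in KO cells in PBS and 48.8 and 66.8 with ligand, and its KO level was 81.9% to 104% of Ctrl elsewhere.

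Whether the KO effect differed among isolations was tested with isolation by genotype terms in edgeR's quasi-likelihood model, a test added after these values were seen, in which the PBS and ligand libraries of an isolation serve as its 2 wells per genotype. It called 3 of 10 members against 1.41% of all tested genes: *Acta2* (adjusted p = 1.73e-05), *Tagln* (6.13e-05) and *Thy1* (0.00437). *Dcn* (0.0800), *Pdgfrb* (0.480) and *Cnn1* (0.537) were not called. Without isolation 1 none of the 3 was (adjusted p = 0.485 for *Acta2*, 0.632 for *Tagln* and 0.707 for *Thy1*). Each isolation was divided into Ctrl and KO cells once, so a difference between its genotypes cannot be told apart from a difference between those cultures.

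Mesothelial genes were also lower in the KO cells of isolation 1. *Msln*, *Upk3b*, *Wt1*, *Lrrn4*, *Krt19* and *Muc16*, markers of the mesothelium that covers the lung surface, summed to 424 and 438 CPM in the Ctrl PBS and Ctrl sENG(M):BMP9 libraries of isolation 1 and to 275 and 272 CPM in its KO PBS and KO pro:BMP9 libraries. In isolation 2 the sum was 10.5 to 12 CPM, in isolation 3 216 to 243 and in isolation 4 38.1 to 46.2, and *Muc16* was at 0 in isolation 2. The KO means of isolation 1 were 62.8% of Ctrl for *Msln*, 50.3% for *Upk3b*, 50.4% for *Lrrn4*, 37.7% for *Muc16*, 77.7% for *Wt1* and 74.6% for *Krt19*, so all 6 were lower there. *Msln* was called in the test of the KO effect among isolations. *Upk3b* was called lower over both treatments (log2 fold change -0.73, SE 0.143, adjusted p = 0.0142, edgeR). DESeq2 did not call *Upk3b*, and the edgeR call was lost with both libraries of a culture summed (adjusted p = 0.183). Isolation 3 held 121 to 130 CPM of *Msln* with *Acta2* at 18.4 to 24.7 CPM. The part of mesothelial RNA in the *Acta2* and *Tagln* values was not tested.

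Other contractile and matrix genes joined isolation 1 in places. *Tpm2*, β-tropomyosin, had a Ctrl mean of 46.5 and a KO mean of 27.2 CPM there, 58.6% of Ctrl against 104% to 116% in the other isolations. It was the only one of 16 smooth muscle genes called in the test of the KO effect among isolations. *Lox*, lysyl oxidase, which crosslinks collagen, went from 127 to 66.5 CPM in isolation 1 (52.4%) and stood at 90.2%, 94.2% and 72% in isolations 2, 3 and 4. It was the only one of 24 tested fibroblast genes called in that test. *Myh11* went from 2.05 to 3.16 CPM in isolation 1, at 154% of Ctrl. None of the 16 smooth muscle genes was called in any of the 6 comparisons of genotype and ligand; in the KO effect over both treatments 1 of them, *Smtn*, had an unadjusted p under 0.05 and was called by DESeq2.

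Lists around the members showed few changes between genotypes, to be read against the 1.38% of all tested genes called over both treatments, 0.682% lower. Over both treatments, 2 of 24 tested non-collagen fibroblast genes were lower in KO cells and none higher: *Lox* (log2 fold change -0.42, SE 0.0843, adjusted p = 0.0149) and *Ccdc80*, a secreted matrix protein (-0.27, SE 0.0491, adjusted p = 0.0106). Of 5 tested proteoglycans related to decorin, *Bgn*, biglycan, was lower (-0.16, SE 0.0376, adjusted p = 0.0453), with a list median of -0.16. Of 12 tested pericyte genes, *Kcnj8* was higher (0.49, SE 0.09, adjusted p = 0.0104) and none was lower; DESeq2 also called *Mcam*, and 5 of the 12 had an unadjusted p under 0.05. The 15 endothelial genes had 1 call, *Esam*, which was higher (0.11, SE 0.0256, adjusted p = 0.0320), and a median of 0.05; 9 of the 15 had an unadjusted p under 0.05, and DESeq2 called 4 (*Egfl7*, *Cldn5*, *Esam* and *Mmrn2*). With both libraries of a culture summed, *Kcnj8*, *Ccdc80*, *Lox*, *Esam* and *Bgn* were not called (adjusted p = 0.145, 0.173, 0.238, 0.238 and 0.289). In the other lists edgeR called none of 6 lymphatic endothelial, 6 PDGF, 5 leukocyte and 5 epithelial genes over both treatments. Of these, 2, 1, 1 and 4 had an unadjusted p under 0.05, and DESeq2 called 1, *Lyve1*. For the KO effect the share of all tested genes at an unadjusted p under 0.05 was not determined. The unadjusted counts of the lists therefore stand without a background and are no result about the lists.

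**Figure D4:**
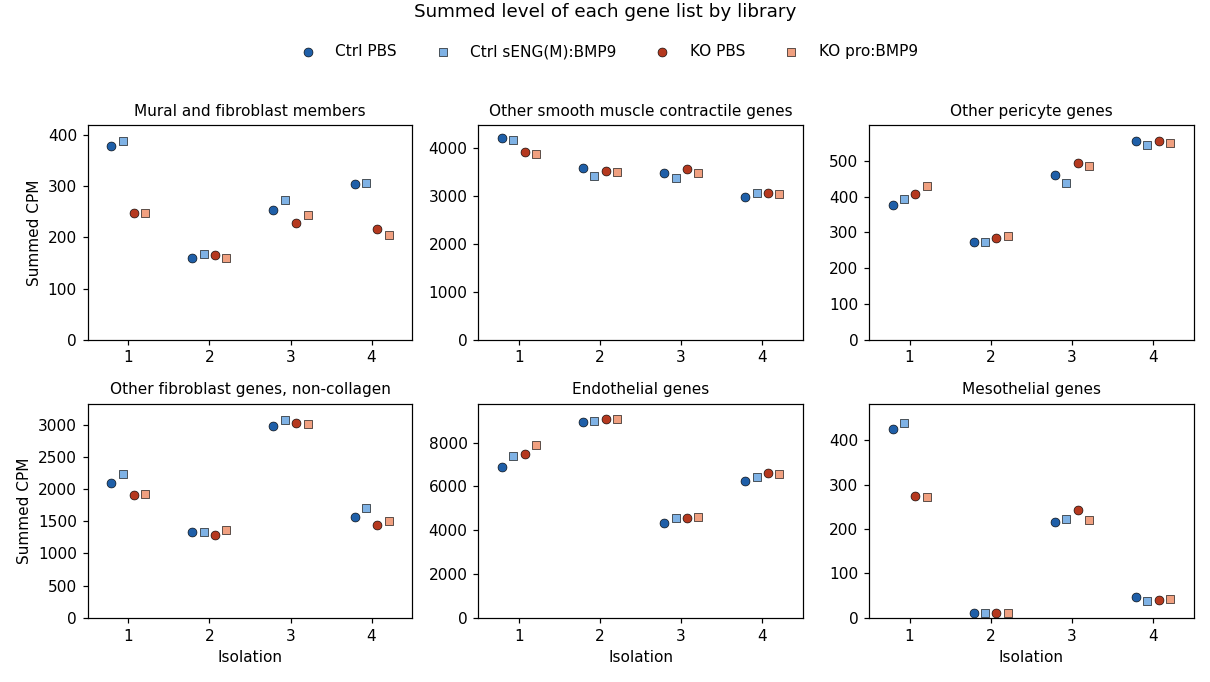
Summed CPM of the 10 members and of 5 other gene lists in each library, by isolation and group, on linear y axes that start at 0. The mesothelial sum and the sum of the members are lower in the KO than in the Ctrl libraries of isolation 1, and the members' sum also in isolations 3 and 4.

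Summed levels placed these changes against the culture as a whole. The 10 members summed to 379 and 388 CPM in the Ctrl and 247 and 248 CPM in the KO libraries of isolation 1, to 253 and 273 against 228 and 244 CPM in isolation 3, and to 305 and 307 against 216 and 205 CPM in isolation 4. In isolation 2 the 4 libraries lay between 159 and 167 CPM. The endothelial genes summed to 6880 and 7370 CPM in the Ctrl and 7460 and 7870 CPM in the KO libraries of isolation 1. Their sums were 4320 and 4550 against 4570 and 4610 CPM in isolation 3, and 6240 and 6450 against 6620 and 6560 CPM in isolation 4. In isolation 2 they lay between 8960 and 9080 CPM. The isolations thus had opposite orders in the 2 sums only in part. Isolation 2 was lowest in the members and highest in the endothelial genes. Isolation 1 was high in the members and not lowest in the endothelial genes. In isolations 1, 3 and 4, KO libraries had lower member and higher endothelial sums than Ctrl libraries of the same treatment. A link between the 2 sums was not tested. Of 10 leukocyte genes 5 were tested, and the list summed to 59.5 to 145 CPM. Of 12 epithelial genes 5 were tested and *Sftpc*, *Sftpb*, *Sftpa1* and *Nkx2-1* had at most 3 counts in every library; the sum was 65.9 to 233 CPM and *Krt19* is on this list and the mesothelial one.

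No member passed the threshold with either BMP9 ligand at 90 min. Given the shares of all tested genes called, 0 of 10 does not set the members apart. In Ctrl cells sENG(M):BMP9 called 0 of 10 members in edgeR's quasi-likelihood test, with 9.69% of all tested genes called, and in KO cells pro:BMP9 called 0 of 10, with 5.59% called; 2 members in Ctrl and 1 in KO cells had an unadjusted p under 0.05, as did 19.6% and 14.1% of all tested genes, and DESeq2 called no member. The medians of the members' log2 fold changes were 0.04 in Ctrl and -0.04 in KO cells. The difference of both ligand responses called 0 of 10 members and 0% of all tested genes, with no member at an unadjusted p under 0.05 (3.6% of all tested genes) and none called by DESeq2.

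The PDGF receptors came nearest. *Pdgfrb* went from 45.2, 25.2, 98.3 and 62.4 CPM in Ctrl PBS to 47.8, 28.2, 108 and 74.1 CPM with sENG(M):BMP9, higher in all 4 isolations but not called (log2 fold change 0.16, SE 0.054, adjusted p = 0.0822), and its log2 fold change in KO cells was 0.05. *Pdgfra* had 10.1, 4.14, 15.4 and 6.95 CPM in Ctrl PBS and 9.74, 6.3, 18.6 and 8.67 CPM with sENG(M):BMP9, higher in 3 of 4 isolations (0.26, SE 0.0958, adjusted p = 0.113). In KO cells it had 8, 4.45, 13 and 5.96 CPM in PBS and 9.32, 5.1, 16.6 and 6.67 CPM with pro:BMP9, higher in all 4 (0.25, SE 0.0999, adjusted p = 0.230). *Des* had the largest fitted response of all members, at -0.58 in KO cells (SE 0.33, adjusted p = 0.493).

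**Figure D5:**
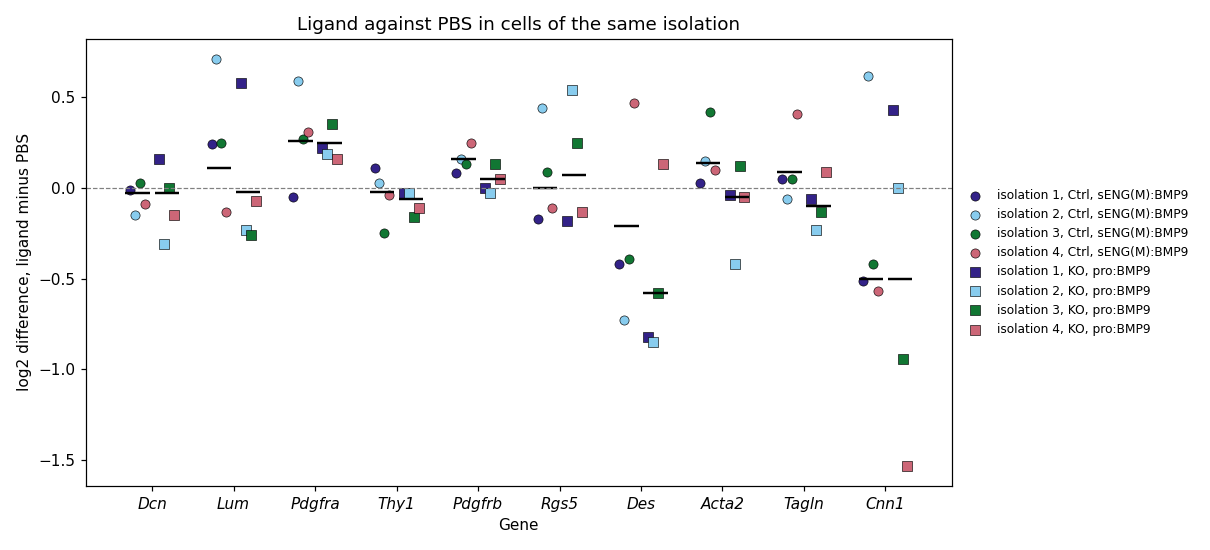
Difference between ligand- and PBS-treated cells of the same isolation for each member. The y axis is the log2 CPM difference (prior count of 2), circles are Ctrl cells with sENG(M):BMP9 and squares KO cells with pro:BMP9, colours are isolations, and black bars are the fitted log2 fold changes. The points of *Pdgfrb* in Ctrl cells and of *Pdgfra* in KO cells lie above 0 in all 4 isolations, and the wide scatter of *Lum*, *Des* and *Cnn1* comes with low counts.

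Ligands of these receptors responded in the same libraries. *Pdgfa* rose with a log2 fold change of 0.72 in Ctrl (SE 0.0548, adjusted p = 2.65e-08) and 0.59 in KO cells (SE 0.0551, adjusted p = 6.62e-07). *Pdgfb*, the endothelial signal to pericytes, rose by 0.49 (SE 0.0684, adjusted p = 5.73e-05) and 0.32 (SE 0.0683, adjusted p = 0.00550) on the same scale. These 2 were the calls among 6 PDGF ligands and partners, and both were higher in all 4 isolations of each genotype. Of 12 tested pericyte genes, the transcription factor genes *Tbx2* (0.96, adjusted p = 0.00122) and *Heyl* (1.5, adjusted p = 0.0161) rose in Ctrl cells and *Tbx2* in KO cells (0.72, adjusted p = 0.0250), 2 and 1 of 12 against 9.69% and 5.59% of all tested genes. No smooth muscle gene of 16 was called with either ligand by edgeR or DESeq2, with 3 in Ctrl and 1 in KO cells at an unadjusted p under 0.05; of 24 fibroblast genes edgeR called none in either genotype, with 2 and 1 at an unadjusted p under 0.05, and DESeq2 called *Mgp* in Ctrl cells. Among markers of the endothelial and leukocyte lists, *Kdr* rose in both genotypes (0.92, adjusted p = 1.03e-04, and 0.76, adjusted p = 0.00119), *Pecam1* rose in Ctrl cells (0.11, adjusted p = 0.0314) and *Cd14* fell there (-0.44, adjusted p = 0.00273).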

How the data were processed

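RNA of 16 MLEC libraries was sequenced from poly-A selected, stranded libraries. The authors deposited raw counts of reads per gene, and according to the submitters' processing notes HISAT2 2.0.5, featureCounts 1.5.0-p3, DESeq2 1.26.0 and GRCm39 were used; the annotation release was not given in the sources used here. Library totals were 14869115 to 17242117 counts.

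Low counts were removed with filterByExpr (group-wise, at least 10, and 15 in total) and normalised by TMM. The quasi-likelihood test of edgeR 4.0.16 in R 4.3.3 was fitted to all libraries with a block for isolation, and Benjamini-Hochberg adjustment ran over all 15693 tested genes (threshold 0.05). Libraries with the same replicate number in the labels come from the same isolation by their library names: over 24 such pairs the deviations from the group means had a mean correlation of 0.757 (lowest 0.67), against -0.251 for other pairs. A prior count of 2 was added only for the log2 differences within isolations. Standard errors were the absolute log2 fold change divided by the square root of F. The procedure was tested on simulated counts. No 2 libraries of a group agreed within sampling noise. Each isolation is a separate line, and 1 library stands for each line, genotype and treatment.

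Alternatives were no replicate block, DESeq2 1.42.0, RLE size factors, other filters on low counts, only the 8 libraries of a comparison, quantile normalisation with ComBat (sva 3.50.0) and DESeq2, and each isolation left out. Summing both libraries of a culture was added later. The members and all gene lists were chosen with earlier results of these data known. Named genes were the members, *Eng*, the up to 4 most abundant tested genes of each list, the up to 4 called ones, and the 5 genes most like *Dcn*, *Pdgfrb* and *Acta2*; other list genes given by isolation were named after their values were seen. Gene models came from GENCODE vM39, which may be newer than the authors' annotation, and no member shared any 75-base window of its transcript with another gene. Promoters of GRCm38.p6 were read from RefSeq, and the box with 1 mismatch was searched after the exact one had been found in no member.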

Additional observations from a re-analysis of the deposited data

Results flagged for a closer look

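Of 40 checks of a member in a group of 4 libraries, 11 found 1 library far from the other 3 by Dixon's test. The nominal rate of about 1 in 20 is no guide here, because the same 4 isolations recur in the 4 groups. The share of all tested genes flagged in this way was not determined. All 11 were single isolations, and the same isolation recurred for each gene.

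*Lum* was far higher in isolation 4 in all 4 groups: 4.89 CPM in Ctrl PBS (others up to 0.585), 4.45 in Ctrl sENG(M):BMP9 (up to 0.713), 2.06 in KO PBS (up to 0.392) and 1.96 in KO pro:BMP9 (up to 0.345). *Acta2* stood apart in isolation 1 at 163 CPM in Ctrl PBS (others up to 18.4) and 166 in Ctrl sENG(M):BMP9 (up to 24.7). *Cnn1* did so in isolation 1 at 3.44 CPM in the Ctrl PBS group, 2.38 in Ctrl sENG(M):BMP9 and 0.897 in KO pro:BMP9, where the others reached 0.12 at most. *Des* was apart in isolation 3 at 3.48 CPM in Ctrl PBS and 4.33 in KO PBS, with the others at up to 0.967.

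The KO effect differed among the isolations for *Acta2* (adjusted p = 1.73e-05), *Tagln* (6.13e-05) and *Thy1* (0.00437) in edgeR's quasi-likelihood test of the isolation by genotype terms, which was added after the values were seen. Under DESeq2, RLE size factors and both other filters the adjusted p stayed between 1.71e-33 and 0.00514, and without isolation 1 none of the 3 passed.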

How the results depend on the processing

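Without the replicate block, 0 of the 10 members were called for KO against Ctrl in PBS (1 with it), with ligand (2 with it) or over both treatments (3 with it), and the calls over all tested genes went from 1521, 878, 3, 40 and 217 to 167, 91, 1, 1 and 1 (ligand in Ctrl, ligand in KO, KO in PBS, KO with ligand, KO over both). Without a filter on low counts, 2 members were called in PBS (*Dcn* and *Acta2*), 4 with ligand (also *Pdgfrb* and *Tagln*) and 5 over both treatments (also *Lum*), and all genes gave 204, 517 and 597 calls in these KO comparisons, 52 for the difference of responses (0 otherwise) and 717 for the KO effect among isolations (221 otherwise). Fitting each comparison's own 8 libraries alone called 0 members in PBS and 1 with ligand, with 1 gene in all in PBS. Quantile normalisation with ComBat and DESeq2 called 0 members in PBS, and over all genes 56 in PBS, 346 with ligand, 11 for the difference of responses and 449 over both; DESeq2 with the block gave 7 and 138 in PBS and with ligand. With the PBS and ligand counts of each culture summed, 1 member was called over both treatments, and 19 genes in all. A cause of these differences was not tested.

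With each isolation left out in turn, members called ranged from 0 to 1 for KO in PBS, stayed at 1 with ligand, and ranged from 1 to 3 over both treatments, from 9 to 10 among isolations and from 0 to 3 for the KO effect among isolations. Over all genes, leaving out isolation 4 gave 69 calls in PBS, 175 with ligand and 113 for the KO effect among isolations. Leaving out isolation 3 gave 1 in PBS, 16 with ligand, 52 over both and 118 for the KO effect among isolations. Without isolation 1 there were 6 with ligand, 44 over both and 144 for the KO effect among isolations. Without isolation 2 there were 15 with ligand, 108 over both and 573 for the ligand response in KO cells.

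Sign changes came in members that were not called. Without the replicate block the log2 values that changed sign were 0 for *Lum*, 0.02 for *Rgs5* and 0.02 for *Thy1* with ligand in Ctrl cells, 0.03 for *Rgs5* (KO in PBS), 0.02 for *Des* (KO over both), and 0.01 for *Pdgfra* and 0.27 for *Cnn1* (difference of responses). *Rgs5* with ligand in Ctrl cells was 0.01 by DESeq2, 0 with RLE, 0 in the 8 libraries and 0.04 with ComBat. ComBat also gave 0.18 for *Cnn1* (KO in PBS), -0.04 for *Rgs5* and -0.01 for *Thy1* (KO with ligand) and -0.04 for *Rgs5* (KO over both), and no filter gave 0 for *Dcn* (difference of responses).

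Leaving out single isolations, KO in PBS ranged from -0.74 to 0.14 for *Acta2*, -0.6 to 0.31 for *Tagln*, -0.1 to 0.08 for *Rgs5*, -0.06 to 0.3 for *Des* and -0.07 to 0.21 for *Thy1*, and the values without isolation 1 were 0.14 for *Acta2* and 0.31 for *Tagln*. KO with ligand ranged from -0.77 to 0.07 for *Tagln*, -0.14 to 0.17 for *Rgs5*, -0.58 to 0.07 for *Des* and -0.08 to 0.16 for *Thy1*. KO over both ranged from -0.68 to 0.19 for *Tagln*, -0.12 to 0.13 for *Rgs5*, -0.32 to 0.18 for *Des* and -0.07 to 0.18 for *Thy1*. The ligand response in Ctrl cells ranged from -0.05 to 0.06 for *Rgs5* and -0.07 to 0.04 for *Thy1*; in KO cells from -0.11 to 0.02 for *Dcn*, -0.16 to 0.03 for *Lum*, -0.14 to 0.01 for *Acta2* and -0.09 to 0.15 for *Rgs5*. The difference of responses ranged from -0.06 to 0.03 for *Dcn*, -0.11 to 0.07 for *Pdgfra*, 0.05 to 0.45 for *Cnn1* and -0.04 to 0.09 for *Rgs5*. Isolations without 10 counts of *Lum* or *Cnn1* limit those 2 genes: *Lum* without isolation 4 and *Cnn1* without isolation 1 could not be tested, nor *Lum*, *Cnn1* and *Des* with at least 10 counts required in every library.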
